A study of Mus musculus with 30 samples.

Results

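Potassium channel subunit genes were described in the left ventricle of C57BL/6 mice of 2 months of age that differed in sex, diet and genotype. They were the genes whose symbols start with Kcn in the array's annotation, each represented by its brightest probe set on average. The rule gave 41 members of the 8251 named genes on the array. These comprised 16 voltage-gated pore subunits, 10 inward rectifiers, 5 two-pore-domain (K2P) channels, 4 calcium-activated or Slo channels and 6 auxiliary subunits. The K2P members are called background channels below by family, not by a measured current. The genotypes were HCM and wild type. The labels give HCM only as this short form, which in cardiac genetics usually stands for hypertrophic cardiomyopathy, and no label names the mutation or what drives it. The diets were casein-based and soy-based. Each array carried RNA pooled from 2 animals. The groups were casein HCM, casein wild type, soy HCM and soy wild type in females and in males, with 4 arrays in each casein group and each soy wild-type group and 3 arrays in each soy HCM group. Signal was read on Affymetrix MG_U74Av2 arrays as log2 expression, on which a difference of 1 is a doubling.

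Potassium channels end the cardiac action potential and hold the resting membrane potential. In the ventricle of the mouse, voltage-gated channels of the Kv4 and Kv1 families carry the transient and slowly inactivating outward currents that drive rapid repolarization, Kir2 inward rectifiers set the resting potential, and channels closed by ATP couple the membrane to metabolism. Pore subunits assemble with auxiliary subunits that change their gating and their traffic to the membrane. Lower expression of outward-current channels is a known feature of hypertrophied and failing hearts.

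Facts of the arrays bear on every value below. The median signal of an array lay between 6.11 and 6.22. All 7 measured markers of ventricular cardiomyocytes, such as Myl2 and Myl3, were above the array median on every array. Their mean level was 12.50 to 12.65 in casein HCM, 12.36 to 12.55 in casein wild type, 12.31 to 12.41 in soy HCM and 11.70 to 12.15 in soy wild type, so soy wild type lay below all other arrays. All 7 passed limma's test as higher in HCM, with a median change of 0.23, and as higher in HCM on soy (0.28). All 7 were also higher on casein than on soy (0.31) and likewise in wild type alone (0.39). Of all genes, 18.7% were higher in HCM, 12.3% in HCM on soy, 30.9% on casein and 21.6% on casein in wild type. On casein 4 markers were higher and 1 lower in HCM (26.9% and 22.7% of all genes). In HCM 6 were higher and 1 lower on casein than on soy (31.9% and 30.1%). The interaction called 1 higher and 3 lower (25% and 20.1%). The part of these markers in the channel results of these comparisons was not tested. Arrays that share diet and genotype also share the behaviour of added control RNAs. The bacterial control Dap read 8.22 to 9.10 on the 8 casein HCM arrays and 4.17 to 5.02 on the 22 others. The difference between the 5′ probe sets of the hybridization controls BioD and BioC divided the casein wild-type arrays into set A (1.01 to 1.19, 4 arrays) and set B (-0.86 to -0.66, 4 arrays), each with both sexes equally. The same difference was 0.67 to 0.88 in casein HCM, 0.89 to 1.13 in soy HCM and -0.23 to 0.37 in soy wild type. HCM and wild type thus did not overlap in it on soy. Technical array sets and the combination of diet and genotype cannot be told apart, except within casein wild type. Between sets A and B, 6 members passed the test, against 12.6% of all genes (7.65% higher, 4.94% lower): Kcnj5 (0.54 higher in set A), Kcnj3 (0.28 higher), Kcnk1 (0.26 higher), Kcne1l (0.24 higher), Kcnd2 (0.23 higher) and Kcnk3 (-0.46 in set A minus set B). Results that use the casein wild-type arrays are therefore given with and without each set where that matters.

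Of the 41 members, 14 were above the array median on all 30 arrays, or 34.1%, against 48.6% of all genes (4012 genes). The signal of a probe set also depends on its sequence, so these levels are set only against the array medians and do not order the genes by abundance. The inward rectifiers among the 14 were Kcnj11 and Kcnj8, the pore subunits of ATP-sensitive channels of cardiomyocytes and of vascular muscle, and Kcnj4. The voltage-gated ones were Kcnh2, the pore of the rapid delayed rectifier, Kcnq1, the pore of the slow delayed rectifier, Kcnd1 and Kcnd3, of the transient outward family, and Kcna5, which carries a slowly inactivating current in mouse ventricle. Kcne1, the auxiliary partner of Kcnq1, the background channels Kcnk3, Kcnk4 and Kcnk7, and the calcium-activated channels Kcnn1 and Kcnn4 made up the rest. Means over the arrays reached 8.96 for Kcnj11, 8.59 for Kcnh2 and 8.51 for Kcnk3.

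Another 7 members crossed the array median. Kcnj5, a subunit of the acetylcholine-activated channel of atrium and nodes, was above it on 24 of 30 arrays, Kcne1l on 26 and Kcna1 on 21. Kcnh1, Kcnc1, Kcnab3 and Kcnab2 were above it on 3, 5, 4 and 5 arrays. The remaining 20 members were below the median on all 30 arrays. They included Kcnj2 and Kcnj12, pore subunits of the resting inward rectifier current (means 4.49 and 4.28), Kcnd2, a main pore subunit of the fast transient outward current in mouse ventricle (mean 3.71), and Kcna4, which carries a slow transient outward current (mean 4.20). Without detection calls it is not known whether these probe sets were above background. The median member averaged 5.96, against 6.60 for the median gene, and the median standard deviation over arrays was 0.179 for members and 0.205 for all genes.

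**Figure D1:**
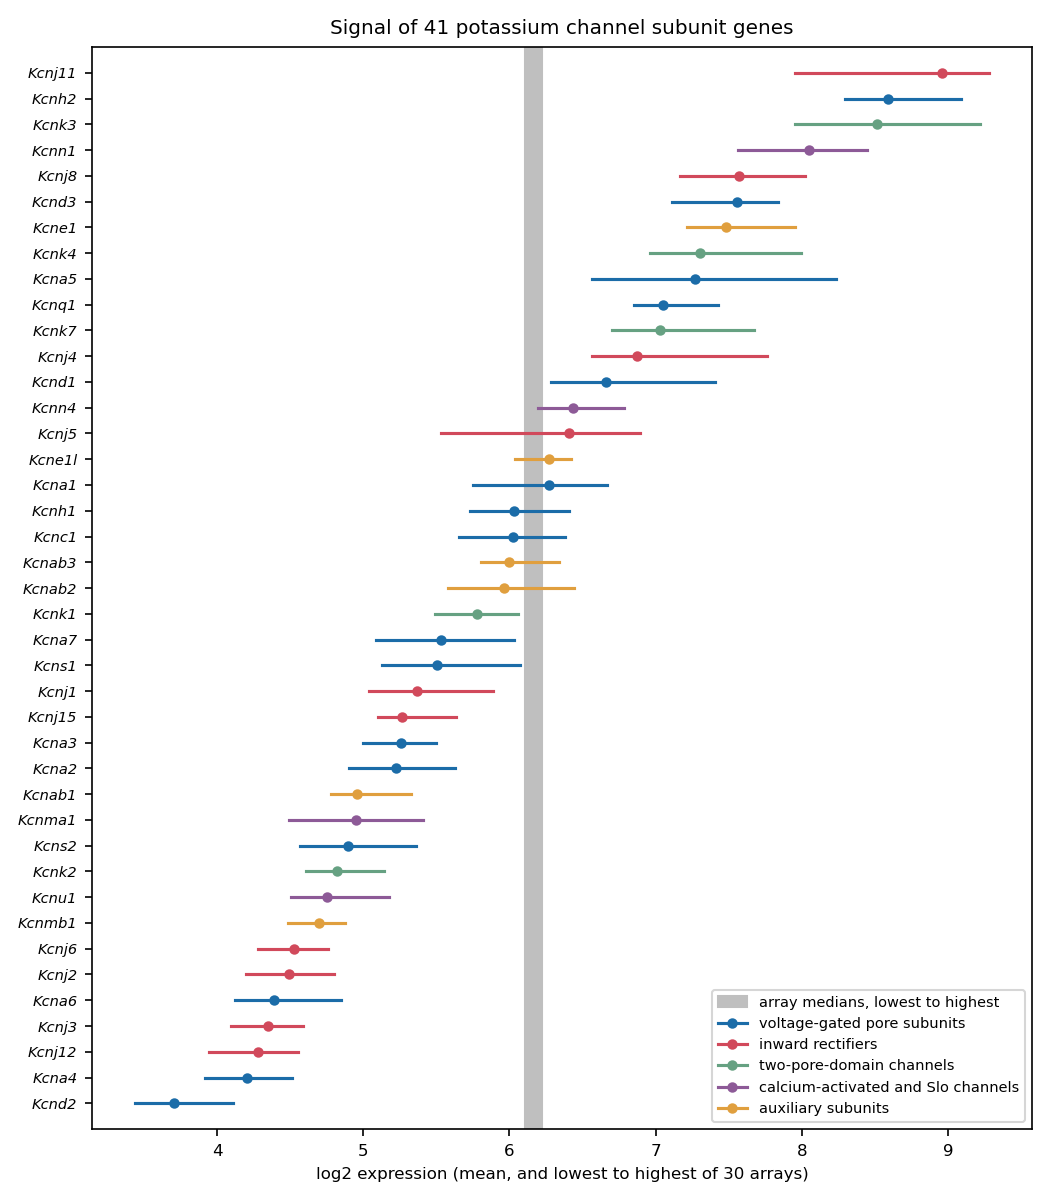
Log2 expression of the 41 potassium channel subunit genes, as the mean (point) and the lowest to highest value (line) over 30 arrays, coloured by channel family; the grey band spans the array medians, 6.11 to 6.22. The lines of 14 genes lie above the median of every array, 20 lie below it and 7 cross it.

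The first comparison set HCM against wild-type ventricles, averaged over both sexes and both diets. Kcnh2, Kcne1, Kcna1, Kcna2, Kcnab2 and Kcnn1 were lower in HCM, and Kcnd3 and Kcnn4 were higher. In all, 8 of 41 members passed limma's test at an adjusted p under 0.05, 2 higher and 6 lower, against 34.1% of all genes. The background split was 18.7% higher and 15.4% lower. Changes were small: the median size was 0.05 on the log2 scale for members and 0.09 for all genes, and the largest for a member was 0.28. By family, 4 voltage-gated subunits (1 higher, 3 lower), 2 calcium-activated channels (1 each way) and 2 auxiliary subunits (both lower) passed, and none of the inward rectifiers or background channels did.

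Kcnh2 had the largest decrease, of -0.28 ± 0.05 (SE; limma, adjusted p = 2.70e-05). Its log2 signal ran over 8.30, 8.42 and 8.58 (lowest, median and highest) in casein HCM, against 8.67, 8.89 and 9.09 in casein wild type. On soy it ran over 8.32, 8.43 and 8.62 in HCM and 8.36, 8.56 and 8.67 in wild type. The groups did not overlap on casein and overlapped on soy, and casein wild type was the group that stood high. On casein the change was -0.45 ± 0.06 (adjusted p = 7.17e-07), -0.43 without set A and -0.47 without set B.

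Kcne1, whose product slows and enlarges the current of Kcnq1 channels, fell by 0.21 ± 0.04 on the log2 scale (SE; limma, adjusted p = 0.000701). Its values were 7.22, 7.41 and 7.57 in casein HCM against 7.41, 7.53 and 7.61 in casein wild type, and 7.27, 7.33 and 7.38 in soy HCM against 7.43, 7.60 and 7.96 in soy wild type. On soy every HCM array lay below every wild-type array. The change on soy was -0.31 ± 0.07 (limma, adjusted p = 0.00126), and that on casein, -0.11 ± 0.06, did not pass (adjusted p = 0.148). The difference between the diets was itself not past the threshold (0.20 ± 0.09, adjusted p = 0.0643).

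Kcna1 and Kcna2, Kv1 pore subunits best known from nerve, fell by 0.24 ± 0.04 and by 0.14 ± 0.05 on the log2 scale (SE; limma, adjusted p = 0.000135 and 0.0204). Kcna1 read 5.75, 5.94 and 6.14 in casein HCM against 6.08, 6.23 and 6.56 in casein wild type, and 6.36, 6.39 and 6.42 in soy HCM against 6.41, 6.49 and 6.66 in soy wild type. HCM and wild type overlapped on both diets, while casein HCM lay below all soy arrays. Kcna2 read 4.90, 4.97 and 5.11 in casein HCM against 5.04, 5.22 and 5.29 in casein wild type, and 5.11, 5.36 and 5.53 in soy HCM against 5.20, 5.42 and 5.63 in soy wild type, again with overlap in each pair. Kcnab2, a cytoplasmic beta subunit of Kv1 channels, fell by 0.15 ± 0.04 (adjusted p = 0.00953) by its brighter probe set. Its second probe set gave 0.05 ± 0.04 for HCM, which did not pass (adjusted p = 0.282), and was higher in HCM on casein, at 0.12 ± 0.05 (adjusted p = 0.0405). Of 6 measured markers of nerve and Schwann cells, 5 were below the array median on every array. Of the 6, 2 were higher and 2 lower in HCM (18.7% and 15.4% of all genes). Their mean level was 4.65 to 4.82 in casein HCM and 4.53 to 4.69 in casein wild type. On soy it was 4.55 to 4.68 in HCM and 4.60 to 4.90 in wild type. The part of nerve cells in the results of Kcna1, Kcna2 and Kcnab2 was not tested. In pooled tissue, fewer cells of a type and less RNA per cell cannot be told apart, here or in any comparison that follows.

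Kcnd3, a pore subunit of the transient outward current, rose by 0.15 ± 0.05 (limma, adjusted p = 0.0156), and Kcnn4, an intermediate-conductance calcium-activated channel known from blood and endothelial cells, rose by 0.13 ± 0.04 (adjusted p = 0.0259). Kcnn4 read 6.37, 6.52 and 6.64 in casein HCM against 6.20, 6.33 and 6.43 in casein wild type, and 6.35, 6.50 and 6.61 in soy HCM against 6.23, 6.36 and 6.78 in soy wild type, and both pairs overlapped. Of 6 endothelial markers, 3 were higher and 2 lower in HCM (18.7% and 15.4% of all genes). Their mean level was 7.67 to 7.89 in casein HCM and 7.98 to 8.14 in casein wild type. On soy it was 7.97 to 8.13 in HCM and 7.36 to 8.02 in wild type. The part of endothelial cells in the result of Kcnn4 was not tested. Kcnn1, a small-conductance calcium-activated channel, fell by 0.11 ± 0.04 (adjusted p = 0.0427). The call of Kcnn1 was lost in 15 of the 30 fits that left out 1 array, that of Kcnn4 without replicate 1 of male or of female soy HCM, and that of Kcna2 without replicate 3 of male soy HCM. With array sets entered as a random block, 3 of the 8 calls passed: Kcnh2, Kcna1 and Kcne1. That block takes its correlation from sets A and B alone and cannot remove a set effect that coincides with diet and genotype.

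Within casein, 13 members passed, 7 higher and 6 lower in HCM, against 49.6% of all genes (26.9% higher, 22.7% lower). Within soy, 7 passed, 1 higher and 6 lower, against 25% of all genes (12.3% higher, 12.7% lower). Only Kcnj5, Kcnd1 and Kcnd2 passed on both diets, and each in opposite directions. Another 10 members passed on casein alone and 4 on soy alone, with 24 on neither. The HCM change had opposite signs on the diets in 23 of the 41 members. The share of all genes with opposite signs, or called on both diets, was not counted. On casein, 9 of the 16 voltage-gated subunits passed (4 higher, 5 lower), 2 of 10 inward rectifiers (both higher), none of the 5 background channels or 6 auxiliary subunits, and 2 of 4 calcium-activated or Slo channels (1 each way).

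The soy result rests on 6 HCM arrays, and its calls depended on single arrays. Kcnd1 and Kcne1 passed in all 30 fits that left out 1 array. Kcnab2 was lost in 8 of the fits, Kcnd2 in 5, Kcnj5 in 7, Kcnj6 in 2 and Kcnk2 in 10. The soy count was 4 without male soy HCM replicate 1 or 2, female soy HCM replicate 3 or female soy wild-type replicate 4. It was 3 without male soy HCM replicate 3 or female soy HCM replicate 1 or 2. With array sets entered as a random block, no member passed limma's test on soy, and 5 were at an unadjusted p under 0.05. On casein, 6 members passed with that block: Kcna5, Kcnj5, Kcna7 and Kcnd3, higher, and Kcnh2 and Kcna1, lower.

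The test of the difference between the diets (the HCM change on casein minus that on soy) called 14 members, 8 higher and 6 lower, against 45.1% of all genes (25% higher, 20.1% lower). In 12 of the 14 the HCM change had opposite signs on casein and soy. A call for the interaction favours such genes, and their share among all genes so called was not counted. With array sets entered as a random block, 4 members passed. The higher ones without that block were Kcnj5, Kcna5, Kcnd1, Kcna7, Kcnj8, Kcnq1, Kcnd3 and Kcnj6, and the lower ones Kcnd2, Kcnk3, Kcnh2, Kcnma1, Kcna4 and Kcnj2. Kcnq1 stands among the higher ones by its brighter probe set alone, and its other probe set was called lower. Among the transient outward subunits the directions were mixed: Kcnd1 (0.63 ± 0.11) and Kcnd3 (0.24 ± 0.09) were positive, and Kcnd2 (-0.41 ± 0.09) and Kcna4 (-0.26 ± 0.09) were negative. The HCM changes on casein and on soy come from different arrays. Leaving out 1 array ended the interaction call of Kcnk3 in 16 of 30 fits, of Kcnd3 in 12, of Kcnj6 in 2 (male soy HCM replicate 1 or female soy HCM replicate 2) and of Kcnma1 in 1 (female soy HCM replicate 2), and of none of the others.

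**Figure D2:**
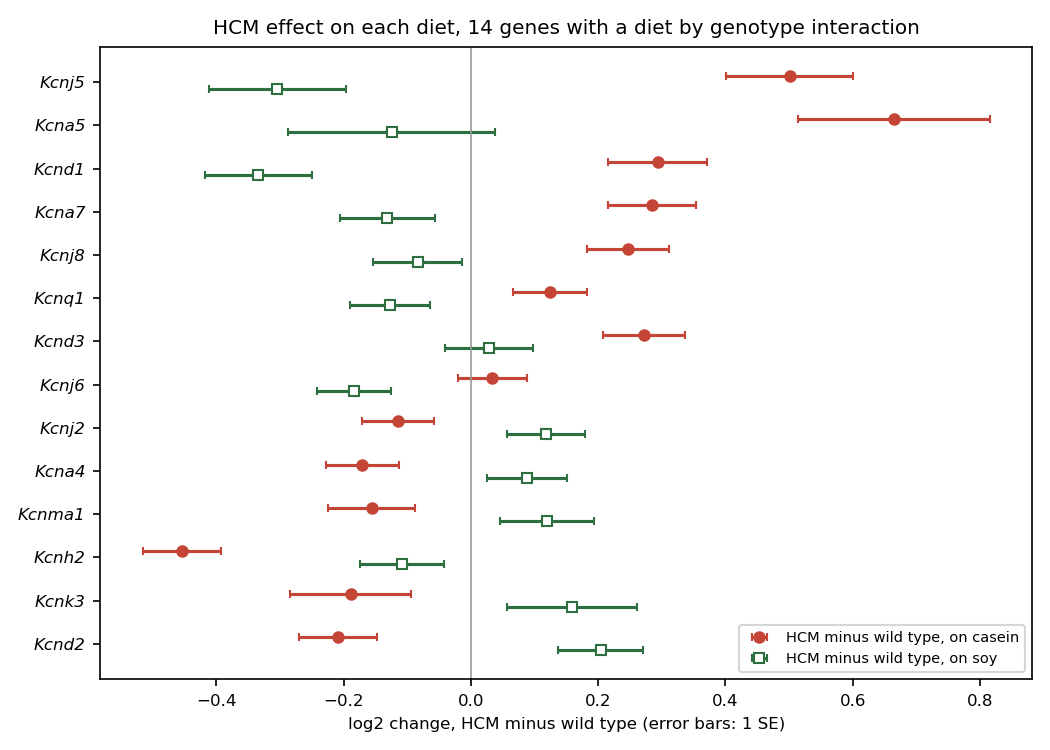
HCM minus wild type on the log2 scale, with 1 SE, for the 14 genes that passed the test of a diet by genotype interaction; filled circles are the change on casein and open squares the change on soy. Kcnj5 (0.50 on casein, -0.30 on soy) and Kcna5 (0.66 on casein, -0.12 on soy) stand farthest to the right on casein, and Kcnh2 (-0.45 on casein) farthest to the left.

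Kcnj5 had the largest interaction, 0.81 ± 0.15 (SE; limma, adjusted p = 6.52e-05). Its protein forms the acetylcholine-activated inward rectifier with that of Kcnj3. On casein its log2 signal was 6.54, 6.69 and 6.89 in HCM, against 5.53, 6.13 and 6.89 in wild type. On soy it was 6.08, 6.22 and 6.26 in HCM, against 6.38, 6.47 and 6.64 in wild type. Every soy HCM array lay below every soy wild-type array, while the casein groups overlapped, with the wild-type arrays spread over more than a doubling.

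The spread of Kcnj5 in casein wild type followed the array sets, at 6.13 to 6.89 in set A and 5.53 to 6.13 in set B. The HCM change on casein was 0.77 without set A and 0.23 without set B, and passed in both fits (limma, adjusted p = 6.26e-08 and 0.00815). The interaction was 1.07 without set A and 0.54 without set B. Within sexes the HCM change was 0.58 in females and 0.42 in males on casein, and -0.36 in females and -0.25 in males on soy. Kcnj3, its partner subunit, was below the array median on every array, and its HCM changes of 0.06 ± 0.06 on casein and -0.12 ± 0.07 on soy did not pass (adjusted p = 0.419 and 0.208).

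Kcna5 had the largest HCM change on casein, 0.66 ± 0.15 (SE; limma, adjusted p = 0.000619), and was the only member past a fold of 1.5 in that comparison. Its values were 7.12, 7.57 and 8.23 in casein HCM against 6.57, 6.93 and 7.38 in casein wild type. On soy they were 6.93, 7.14 and 7.31 in HCM against 6.60, 7.26 and 7.79 in wild type. Both pairs overlapped, and 6 of the 8 casein HCM arrays, at 7.48 or more, exceeded all casein wild-type arrays. The change was 0.69 without set A and 0.64 without set B. The interaction, 0.79 ± 0.22 (adjusted p = 0.00491), did not pass with array sets entered as a random block (adjusted p = 0.0898).

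Some markers of atrial muscle moved the same way as Kcnj5 on both diets, and as the brighter probe set of Kcna5 on casein. The change of Kcna5 on soy, -0.12 ± 0.16, did not pass (limma, adjusted p = 0.604). Of 5 measured atrial markers, 3 rose in HCM on casein: Myl7 (the atrial regulatory light chain, 1.58 ± 0.34), Nppa (atrial natriuretic peptide, 0.98 ± 0.13) and Myl4 (the atrial essential light chain, 0.39 ± 0.11). On soy, Myl7 (-1.32 ± 0.36) and Myl4 (-0.32 ± 0.12) fell, and Nppa did not pass. All 3 passed the interaction test, with Myl7 at 2.90 ± 0.50. Of all genes, 26.9% were higher in HCM on casein, 12.7% lower in HCM on soy and 25% higher in the interaction. The mean log2 level of the 5 markers was 6.98 to 7.84 in casein HCM, 6.46 to 7.06 in casein wild type, 6.68 to 7.08 in soy HCM and 6.95 to 7.36 in soy wild type. Sln and Bmp10 passed in none of these comparisons, and Bmp10 averaged 4.87, below the array medians. The part of atrial tissue or atrial-type expression in the results of Kcnj5 and Kcna5 was not tested.

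The promoters of Kcnj5 and Kcna5, which had the largest HCM increases on casein among the members, and of Kcnh2, which had the largest decrease there, are shown because these 3 genes had the largest HCM changes on that diet. Each runs from 250 bases before to 50 bases after the annotated start, on the minus strand of GRCm38.p6, as given by RefSeq. Kcnj5 is at chr9:32344295-32344594, Kcna5 at chr6:126535506-126535805 and Kcnh2 at chr5:24329542-24329841. Capitals mark matches to 6 short motifs, sought on both strands: GGGCGG, known as a GC box, AGATAA, which zinc finger factors of the GATA family bind, CAGCTG, known as an E-box, CAAGTG, bound by the homeodomain factor NKX2-5, AGGTCA, the half-site of nuclear receptors, and TATAAA, the core promoter element of that name. No matches overlapped in these 3 windows.
Kcnj5: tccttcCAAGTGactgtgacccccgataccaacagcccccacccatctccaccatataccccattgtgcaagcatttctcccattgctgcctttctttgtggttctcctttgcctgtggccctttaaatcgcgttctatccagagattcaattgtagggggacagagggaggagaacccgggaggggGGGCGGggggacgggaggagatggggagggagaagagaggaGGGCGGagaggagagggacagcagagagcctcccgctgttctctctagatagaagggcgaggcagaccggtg
Kcna5: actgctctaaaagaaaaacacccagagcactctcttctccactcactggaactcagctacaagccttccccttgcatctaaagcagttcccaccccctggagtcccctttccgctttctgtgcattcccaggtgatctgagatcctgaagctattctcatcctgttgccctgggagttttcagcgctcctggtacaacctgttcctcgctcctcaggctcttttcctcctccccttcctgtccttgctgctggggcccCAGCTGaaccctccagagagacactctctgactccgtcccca
Kcnh2: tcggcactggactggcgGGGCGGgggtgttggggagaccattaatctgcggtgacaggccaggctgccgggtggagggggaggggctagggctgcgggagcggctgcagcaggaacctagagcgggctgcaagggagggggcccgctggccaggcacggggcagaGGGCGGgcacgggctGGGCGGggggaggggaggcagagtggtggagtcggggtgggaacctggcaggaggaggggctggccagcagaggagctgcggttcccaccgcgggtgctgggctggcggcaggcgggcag
The Kcnj5 window held the NKX2-5 letters at -244 and GC boxes at -63 and -22, counted from the start site. The Kcna5 window held 1 E-box, at 9, and the Kcnh2 window held GC boxes at -233, -85 and -70. Of 32851 mouse promoters of the same length, 35.7% held a GC box, 16.3% this E-box and 13.6% the NKX2-5 letters. TATAAA was in 13.6% of them, AGATAA in 11.2% and the half-site in 16.3%. Promoters were matched for 32 of the 41 members, with 41 windows in all: 22 held a GC box, 13 the E-box, 10 the NKX2-5 letters, 2 the core element TATAAA, and 1 each AGATAA and the half-site. These windows had a median of 61.0% G and C, against 52.7% for all promoters. A match describes letters and does not show that a factor binds there.

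Kcnd1, Kcnd2 and Kcnd3 are the Kv4 pore subunits. Kcnd1 read 6.64, 6.79 and 6.96 in casein HCM against 6.29, 6.51 and 6.66 in casein wild type, and 6.33, 6.49 and 6.65 in soy HCM against 6.60, 6.78 and 7.41 in soy wild type. The pairs overlapped only at their edges, so casein HCM and soy wild type formed a higher level and the other groups a lower one. The HCM changes were 0.29 ± 0.08 on casein and -0.33 ± 0.08 on soy (SE; limma, adjusted p = 0.00258 and 0.00474), and the interaction passed at an adjusted p of 6.42e-05. Kcnd1 also kept its call on casein without either set, at 0.27 without set A and 0.32 without set B.

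Kcnd2 went the other way. Its signal, below the array median throughout, was 3.44, 3.59 and 3.67 in casein HCM against 3.60, 3.75 and 4.01 in casein wild type, and 3.75, 3.84 and 4.11 in soy HCM against 3.47, 3.70 and 3.76 in soy wild type. The pairs overlapped slightly, and every soy HCM array lay above every casein HCM array. The changes were -0.21 ± 0.06 on casein and 0.20 ± 0.07 on soy (SE; limma, adjusted p = 0.00594 and 0.0257), with an interaction of -0.41 ± 0.09 (adjusted p = 0.00051). The casein change was -0.09 without set A and did not pass (adjusted p = 0.257), and -0.33 without set B. A second probe set of Kcnd2 gave -0.19 on casein (adjusted p = 0.00283), 0.05 on soy (not called) and an interaction of -0.24 (adjusted p = 0.0103).

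Kcnd3 rose by 0.27 ± 0.06 on casein (limma, adjusted p = 0.000958), with 7.44, 7.58 and 7.83 in HCM against 7.11, 7.35 and 7.57 in wild type, and its soy values of 7.57, 7.69 and 7.77 in HCM and 7.39, 7.67 and 7.84 in wild type overlapped throughout. The casein change was 0.37 without set A and 0.17 without set B, where it did not pass (adjusted p = 0.0641). Its interaction of 0.24 was 0.14 without set B (adjusted p = 0.256).

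**Figure D3:**
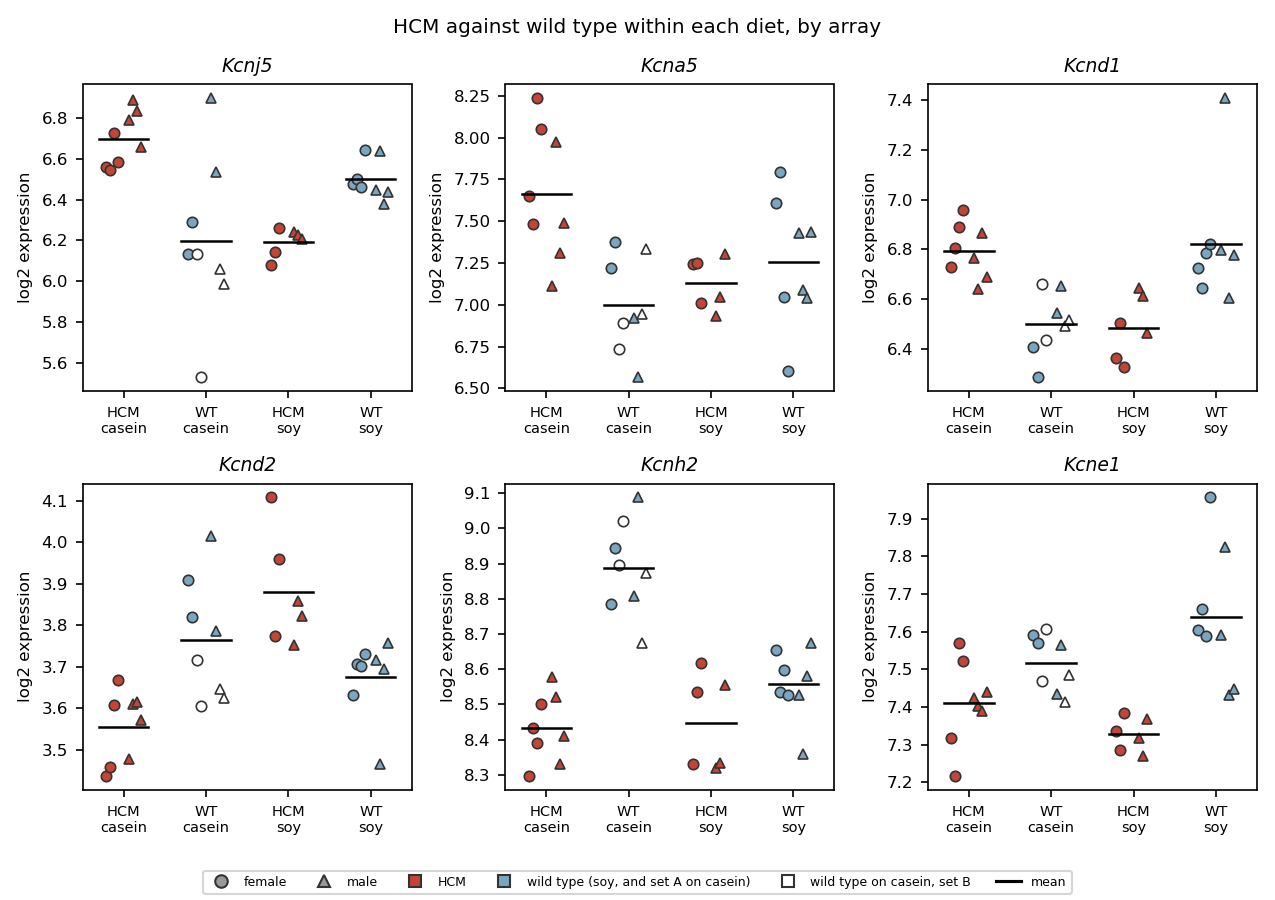
Log2 expression on each array (points; circles female, triangles male) of Kcnj5, Kcna5, Kcnd1, Kcnd2, Kcnh2 and Kcne1 in HCM (red) and wild type on each diet, with the group mean as a line; open symbols are set B of the casein wild-type arrays. Kcnj5 and Kcne1 separate HCM from wild type on soy, Kcnh2 separates them on casein, and Kcnj5 is lowest (5.53) on an array of set B.

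Kcna7, a Kv1 pore subunit, rose by 0.28 ± 0.07 in HCM on casein, and its change on soy was -0.13 ± 0.07, which did not pass (limma, adjusted p = 0.00112 and 0.194). Its values were 5.50, 5.84 and 6.03 in casein HCM, 5.39, 5.50 and 5.95 in casein wild type, 5.09, 5.30 and 5.46 in soy HCM and 5.25, 5.41 and 5.76 in soy wild type. All casein HCM arrays were above all soy HCM arrays. Kcna7 was 1 of 4 members that kept an interaction call with array sets entered as a random block, beside Kcnj5, Kcnd1 and Kcnd2.

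Kcnj8, the pore of the ATP-sensitive channel of vascular smooth muscle and pericytes, rose by 0.25 ± 0.06 in HCM on casein (limma, adjusted p = 0.00236). It read 7.64, 7.82 and 8.02 in casein HCM, 7.51, 7.58 and 7.69 in casein wild type, 7.22, 7.38 and 7.48 in soy HCM and 7.17, 7.49 and 7.61 in soy wild type. Casein HCM was the highest group, overlapping casein wild type at 1 edge and no soy array. Of 8 markers of smooth muscle and pericytes, 5 were higher and 1 lower in HCM on casein (26.9% and 22.7% of all genes). Tagln was at 0.92, Acta2 at 0.59 and Notch3 at -0.50. The mean level of the 8 markers was 7.73 to 8.02 in casein HCM and 7.31 to 7.70 in casein wild type. On soy it was 7.42 to 7.51 in HCM and 7.19 to 7.48 in wild type. The part of these cells in the result of Kcnj8 was not tested.

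Kcnj11, the pore of the ATP-sensitive channel of cardiomyocytes, passed in no comparison. It read 8.68, 9.02 and 9.22 in casein HCM, 7.96, 9.10 and 9.28 in casein wild type, 8.93, 9.10 and 9.26 in soy HCM and 8.64, 8.90 and 8.98 in soy wild type. The groups overlapped, with 1 casein wild-type array far below the rest, and the HCM effect was 0.14 ± 0.07 (limma, adjusted p = 0.157). Abcc9, the regulatory subunit that pairs with these pores in heart and vessels, rose by 0.32 ± 0.08 in HCM (adjusted p = 0.00238), by 0.56 ± 0.11 on soy, with an interaction of -0.49 ± 0.15 (adjusted p = 0.0113).

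Of the Kir2 subunits Kcnj2, Kcnj12 and Kcnj4, only Kcnj2 was called in a comparison of HCM, diet or their interaction. Kcnj2 had an interaction of -0.23 ± 0.08 (limma, adjusted p = 0.0234) from changes of -0.11 ± 0.06 on casein and 0.12 ± 0.06 on soy, neither of which passed. Its values were 4.20, 4.36 and 4.58 in casein HCM against 4.35, 4.50 and 4.63 in casein wild type, and 4.53, 4.63 and 4.78 in soy HCM against 4.44, 4.48 and 4.80 in soy wild type, so the HCM and wild-type arrays overlapped on each diet. Within HCM it was lower on casein, by -0.26 ± 0.06 (casein minus soy, adjusted p = 0.000558), a call kept with array sets entered as a random block (adjusted p = 0.0249). Kcnj12 and Kcnj4 passed in no comparison, with HCM effects of 0.07 ± 0.05 and -0.14 ± 0.07. Kcna4, at 3.92, 4.12 and 4.24 in casein HCM against 4.19, 4.23 and 4.51 in casein wild type, changed by -0.17 ± 0.06 on casein (adjusted p = 0.0157), and its soy change of 0.09 ± 0.06 did not pass. Kcnj6, an acetylcholine-type inward rectifier best known from brain, changed by -0.18 ± 0.06 on soy (adjusted p = 0.0225) and had an interaction of 0.22 ± 0.08 (adjusted p = 0.0272), which its second probe set did not show (0.00).

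Probe sets of Kcnq1 disagreed. The brighter one, which stands for the gene, had an interaction of 0.25 ± 0.09 (limma, adjusted p = 0.0187) and no call for the HCM or mean diet effect. It read 6.98, 7.04 and 7.26 in casein HCM, 6.86, 6.94 and 7.18 in casein wild type, 6.89, 7.02 and 7.10 in soy HCM and 6.85, 7.16 and 7.43 in soy wild type. The other probe set read 5.25, 5.85 and 6.50 in casein HCM, 6.18, 6.63 and 7.41 in casein wild type, 7.56, 7.71 and 7.82 in soy HCM and 6.63, 7.70 and 7.97 in soy wild type. By it, Kcnq1 was lower on casein by -1.34 ± 0.12 (casein minus soy, adjusted p = 1.82e-10), lower in HCM on casein, at -0.80, and had an interaction of -0.91 ± 0.24 (adjusted p = 0.00285), opposite in sign to the brighter one. The correlation of the pair over 30 arrays, which share group structure, was 0.13. The sign of the Kcnq1 interaction thus depended on the probe set. In wild type both probe sets were lower on casein. The brighter one was called there in all 30 fits that left out 1 array (-0.21 to -0.15). The other had medians of 6.63 on casein and 7.70 on soy.

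Among the 8 members with more than 1 probe set, others also differed. The second probe set of Kcna5 averaged 3.63 and gave 0.05 for HCM on casein and an interaction of 0.06, neither called, against 0.66 and 0.79 in the brighter one. That of Kcnab2 gave a diet effect of 0.03, not called, against -0.36, and its correlation with the brighter one over 30 arrays was -0.22. The second probe set of Kcnab1, a Kv1 beta subunit that passed in no comparison by its brighter one, had an interaction of -0.42 (limma, adjusted p = 0.00179). The results of the 33 members with 1 probe set could not be compared in this way.

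**Figure D4:**
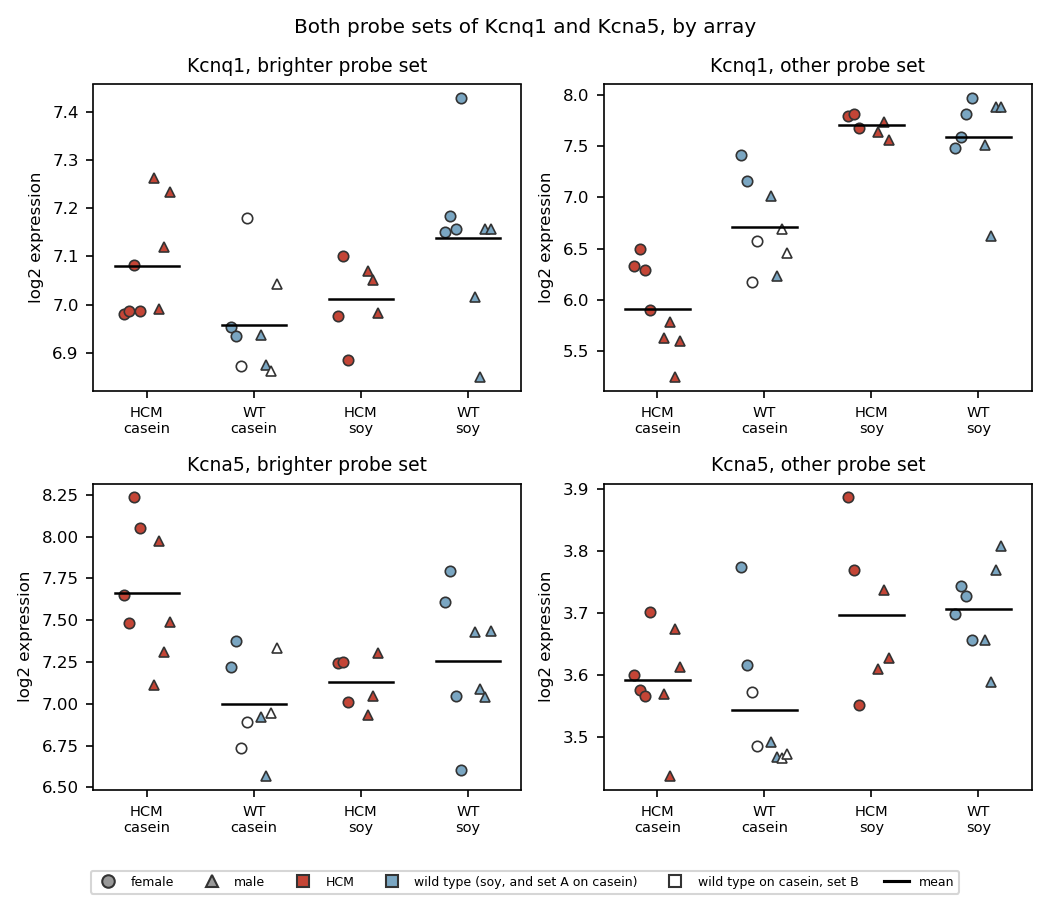
Log2 expression on each array by both probe sets of Kcnq1 (top) and Kcna5 (bottom), in HCM (red) and wild type on each diet; lines are group means and open symbols set B of the casein wild-type arrays. The other probe set of Kcnq1 lies at 5.25 to 6.50 in casein HCM and 7.56 to 7.82 in soy HCM, while the brighter one overlaps between all groups.

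The second comparison set casein against soy, averaged over both sexes and both genotypes. Most of the members that passed were lower on casein. Among them were Kcna1, Kcna2, their beta subunit Kcnab2 (by its brighter probe set alone) and 3 of the 5 background channels. The count was 19 of 41, 5 higher and 14 lower, against 62.9% of all genes, of which 30.9% were higher and 32% lower. Centring each array on its median gave 7 higher and 10 lower. In wild type 18 members passed, 3 higher and 15 lower, against 47% of all genes (21.6% higher, 25.4% lower), and the split was 9 and 11 after centring and 7 and 12 after quantile normalization. In HCM 20 passed, 7 higher and 13 lower, against 62.1% (31.9% higher, 30.1% lower). The median size of the mean diet change was 0.12 for members and 0.17 for all genes. The call was made in both genotypes for 12 members, with the same direction in 10 (2 higher, 8 lower) and opposite directions in Kcnd1 and Kcnj5. With array sets entered as a random block, 15 members passed for diet, 12 in wild type and 14 in HCM. With that block 8 were called in both genotypes, all with the same direction (1 higher, 7 lower), so neither pair of opposite calls was kept. The share of all genes called in both genotypes was not counted.

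Kcnk3, an acid-sensitive background channel, had the largest increase on casein, 0.52 ± 0.07 (SE; limma, adjusted p = 2.37e-07). Its values were 8.19, 8.64 and 9.05 in casein HCM against 8.11, 8.36 and 8.45 in soy HCM, and 8.39, 8.91 and 9.22 in casein wild type against 7.96, 8.15 and 8.35 in soy wild type. The diets did not overlap in wild type and overlapped in HCM. The change was 0.35 ± 0.10 in HCM and 0.70 ± 0.09 in wild type, and the difference, -0.35 ± 0.14, was called at an adjusted p of 0.0429. That call was also lost without set B (-0.12, adjusted p = 0.432). Set A read 8.39 to 8.85 and set B 8.96 to 9.22, and the diet change in wild type was 0.92 without set A and 0.47 without set B, called in both.

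Kcna7 (0.33 ± 0.05), Kcnj8 (0.30 ± 0.05), Kcns1 (0.30 ± 0.07) and Kcnh2 (0.16 ± 0.05) were the other members higher on casein. Kcna7 and Kcnj8 passed in HCM (0.53 and 0.47) and not in wild type (0.12 and 0.14), and their interactions passed, as given above. Kcnh2 passed in wild type (0.33 ± 0.06) and not in HCM (-0.02 ± 0.07). Its mean diet call was lost with quantile normalization (0.06, limma, adjusted p = 0.262) and with array sets entered as a random block (adjusted p = 0.0609). Kcns1, a silent subunit that alters other voltage-gated channels, passed in both genotypes, with 5.41, 5.61 and 5.91 in casein HCM against 5.28, 5.35 and 5.49 in soy HCM, and 5.38, 5.53 and 6.07 in casein wild type against 5.13, 5.26 and 5.93 in soy wild type. Its highest soy wild-type value, in male replicate 2, lay far above the others. With array sets entered as a random block Kcns1 passed for the mean diet effect (adjusted p = 0.0261) and in neither genotype alone. Its call in HCM was also lost without male soy HCM replicate 2 or female soy HCM replicate 3.

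Kcns2, a second silent subunit, had the largest decrease, -0.39 ± 0.05 (SE; limma, adjusted p = 1.99e-07). It read 4.57, 4.75 and 5.01 in casein HCM against 5.02, 5.05 and 5.24 in soy HCM, and 4.61, 4.66 and 4.74 in casein wild type against 4.87, 5.11 and 5.36 in soy wild type. The diets did not overlap in either genotype. Kcnn1 behaved alike (-0.36 ± 0.04), with 7.56, 7.85 and 7.96 in casein HCM against 8.09, 8.18 and 8.45 in soy HCM and 7.80, 7.97 and 8.10 in casein wild type against 8.19, 8.25 and 8.43 in soy wild type. Kcnab2 (-0.36 ± 0.04) ran over 5.58, 5.70 and 5.96 in casein HCM against 5.97, 5.99 and 6.27 in soy HCM, and 5.70, 5.83 and 6.03 in casein wild type against 6.07, 6.21 and 6.45 in soy wild type. These are values of its brighter probe set, by which casein and soy arrays did not overlap in either genotype. Its second probe set gave a diet effect of 0.03, not called (limma, adjusted p = 0.43).

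Kcna1 (-0.36 ± 0.04) and Kcna2 (-0.31 ± 0.05) were lower on casein in both genotypes, as was Kcnk2, a mechanically gated background channel (-0.22 ± 0.03). Kcna1 and Kcna2 lie next to other Kv1 members in the genome: with no protein-coding gene between them, Kcna5 neighbours Kcna1, Kcna1 neighbours Kcna6, and Kcna3 neighbours Kcna2. Kcna3 and Kcna6 passed in no comparison of HCM, diet or their interaction. Kcnj5 likewise neighbours Kcnj1, which passed in none by its brighter probe set. Kcnma1, the large-conductance calcium-activated channel, was lower on casein by -0.29 ± 0.05 and Kcnmb1, its smooth muscle beta subunit, by -0.15 ± 0.04 (adjusted p = 1.35e-05 and 0.00203), although both were below the array median throughout. Kcnma1 read 4.49, 4.78 and 4.89 in casein HCM against 5.04, 5.16 and 5.32 in soy HCM, with no overlap, and 4.66, 4.88 and 5.08 in casein wild type against 4.88, 5.02 and 5.41 in soy wild type. Of the 8 smooth muscle and pericyte markers, 6 were higher on casein and 1 lower, against 30.9% and 32% of all genes. The part of these cells in the results of Kcnma1 and Kcnmb1 was not tested. The other members lower on casein were Kcnk7 (-0.28), Kcnc1 (-0.23), Kcnd3 (-0.18), Kcnj2 (-0.14), Kcnk1 (-0.14) and Kcnd2 (-0.12).

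**Figure D5:**
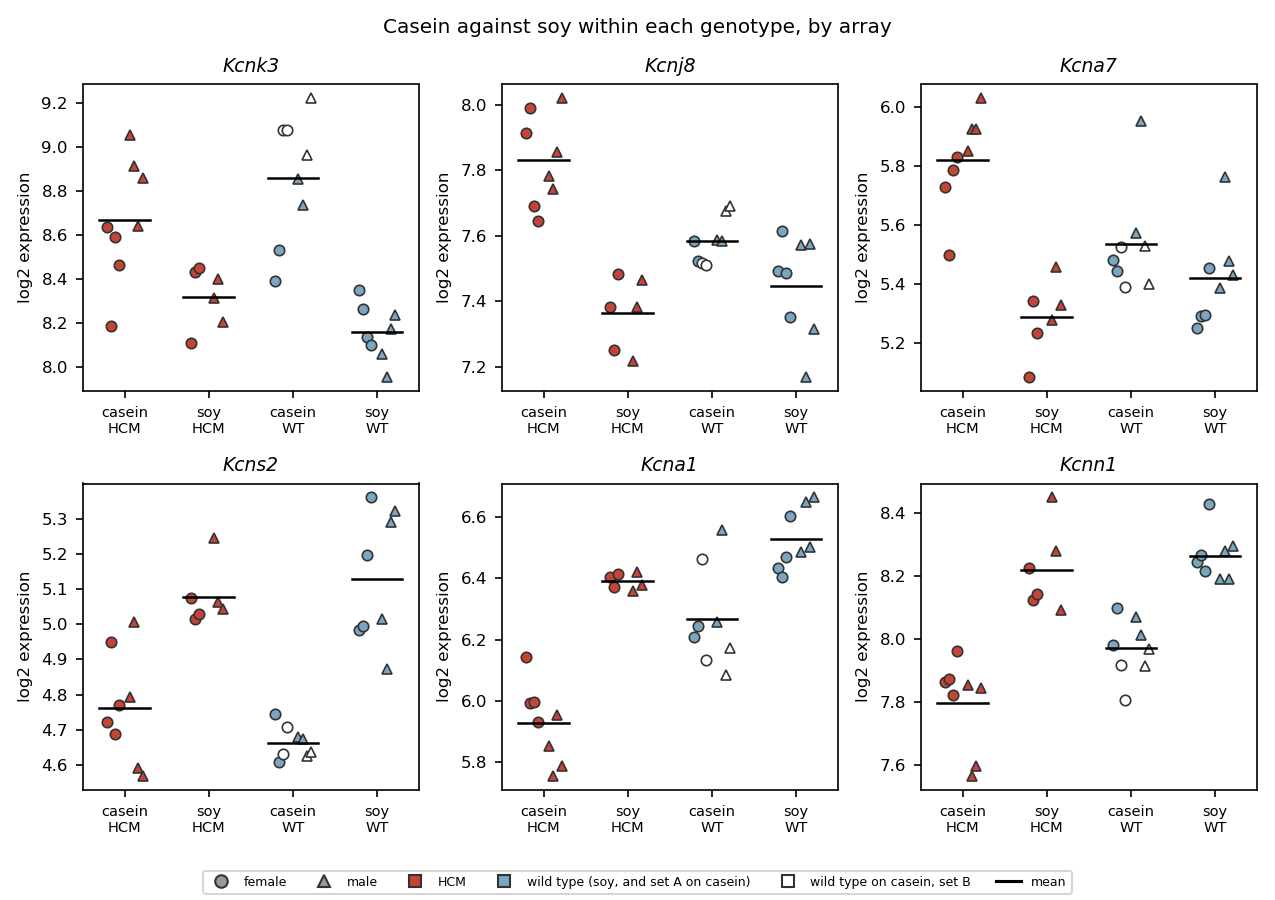
Log2 expression on each array of Kcnk3, Kcnj8, Kcna7, Kcns2, Kcna1 and Kcnn1 on casein and soy, within HCM (red) and within wild type; circles are females, triangles males, lines group means and open symbols set B of the casein wild-type arrays. Kcns2 and Kcnn1 separate the diets in both genotypes, Kcnk3 in wild type, and Kcnj8, Kcna7 and Kcna1 in HCM.

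The third comparison set females against males. No member passed limma's test for the mean sex effect, against 0.267% of all genes (0.182% higher, 0.0848% lower), and 2 members were at an unadjusted p under 0.05. They were Kcna7 (-0.18 ± 0.05, female minus male, adjusted p = 0.201) and Kcnj12 (-0.13 ± 0.05, adjusted p = 0.488), both lower in females. The test of a difference in HCM effect between the sexes called no member and 0% of all genes, and 3 members were at an unadjusted p under 0.05. The largest was Kcnk4 at 0.32 ± 0.12 (adjusted p = 0.902). The median size of the sex effect was 0.03 for members and 0.04 for all genes. A p that misses the threshold does not show that the sexes were alike.

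A total of 13 members passed in no comparison of HCM, diet or their interaction: Kcna3, Kcna6, Kcnab1, Kcnab3, Kcne1l, Kcnh1, Kcnj1, Kcnj4, Kcnj11, Kcnj12, Kcnj15, Kcnk4 and Kcnu1, the last a channel known from sperm. Kcnj11, Kcnj4 and Kcnk4 among them were above the median on every array.

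Partners and other channels were counted from lists. Of 16 measured potassium channel partners, 6 were higher and 2 lower in HCM (34.1% of all genes called), among them Sgk1, a kinase that raises channel traffic to the membrane (0.57 ± 0.13), Fhl1, a LIM protein (0.31 ± 0.06), and Ywhaq, an adaptor protein (0.31 ± 0.11), beside Abcc9. The interaction called 3 of the 16 higher and 5 lower (45.1% of all genes called), with Dlg1, a scaffold of Kv and Kir channels, at -0.71 ± 0.09. On casein minus soy, Dpp6, an auxiliary subunit of Kv4 channels, was at -0.52 ± 0.05, and 4 partners were higher and 5 lower (62.9% of all genes called). Of 11 calcium channel genes, 3 were higher and 1 lower in HCM (18.7% and 15.4% of all genes). Cacna2d1, an auxiliary subunit of the L-type channel, rose by 0.36 ± 0.14, and Cacna1c, its cardiac pore, had an interaction of -0.65 ± 0.11. None of 4 sodium channel genes passed for HCM, and all 4 were below the array median throughout.

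Of 2 pacemaker channel genes, Hcn2 changed by 0.19 ± 0.07 in HCM on casein and by -0.34 ± 0.07 on soy, the same pattern as Kcnj5 and Kcnd1. Among 7 sodium pump genes, 2 were higher and 1 lower in HCM, with Atp1b2 at 0.25 ± 0.06. Of 6 gap junction genes, 2 were higher, Gja1 (connexin 43, by 0.38 ± 0.07) and Gjc1. Of 8 transcription factors linked to potassium channel expression, 1 was higher and 3 lower in HCM. For each of these lists the share of all genes was 18.7% higher and 15.4% lower in HCM. Irx3 rose by 0.45 ± 0.08 and, on casein, by 0.82 ± 0.11, and Nkx2-5 fell by 0.18 ± 0.04 on the log2 scale. On casein, 1 of the 8 factors was higher and 5 were lower in HCM, against 26.9% and 22.7% of all genes. Between sets A and B of casein wild type, 5 of the 8 were higher in set A and 0 lower (7.65% and 4.94% of all genes). Values of these factors without each set are not given here. Irx3 is known in the mouse as a regulator of conduction in the ventricle.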

How the data were processed

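Left ventricular RNA of 30 samples was measured on Affymetrix MG_U74Av2 arrays. The authors deposited log2 values, summarised per probe set by RMA in Affymetrix Expression Console, as the submitters' processing notes name these tools; versions, scanner signals and detection calls are not used here. Of 12488 probe sets, 66 are controls; 10833 had 1 gene symbol, 396 several and 1193 none. The probe set with the highest mean stood for each of 8251 genes. Potassium channel genes had 49 probe sets; all 41 were found by Entrez number and 0 symbols changed. A further Kcn gene is not reported here. Members, lists and alternatives were chosen with earlier results of these data known.

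All arrays entered a single limma group-means model (limma 3.58.1 in R 4.3.3; 22 residual and 6.16 prior degrees of freedom), with two-sided tests and Benjamini-Hochberg adjustment over all 8251 genes at 0.05. Checked on simulated data for the HCM effect (8251 genes), it recovered 84% of log2 changes of 0.25 and 99% of 0.5, with 9 false calls. The simulated arrays were independent and held no array-set effects, so these figures do not cover such effects. Named with values were up to 6 members each way per comparison and known cardiac subunits. Samples were labelled as replicates of pooled RNA, so p-values measure the spread between pools. The number of arrays limits precision. Array sets entered as a random block (statmod 1.5.0, consensus correlation 0.167). Only casein wild type was divided between sets, so this correlation rests on those arrays and was applied to all. Where a set coincides with a diet and genotype, the block cannot separate them. The fits without set A or set B were chosen after seeing the data.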

Additional observations from a re-analysis of the deposited data

Results flagged for a closer look

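The HCM change differed between casein and soy (HCM change on casein minus that on soy, tested in limma) for 14 members, of which 4 (Kcnj5, Kcnd1, Kcna7 and Kcnd2) passed with array sets entered as a random block. The differences were 0.81 for Kcnj5, 0.79 for Kcna5, 0.63 for Kcnd1, 0.42 for Kcna7, 0.33 for Kcnj8, 0.25 for Kcnq1, 0.24 for Kcnd3 and 0.22 for Kcnj6. The value for Kcnq1 is that of its brighter probe set, and the other was called at -0.91, so its sign depended on the probe set. They were -0.41 for Kcnd2, -0.35 for Kcnk3, -0.35 for Kcnh2, -0.28 for Kcnma1, -0.26 for Kcna4 and -0.23 for Kcnj2.

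Single arrays stood apart from the other 3 of their group in 7 of 144 tests (24 members, 6 groups of 4 arrays), or 4.86%, where chance gives about 1 in 20. Kcns1 read 5.93 in male soy wild-type replicate 2, against 5.21 to 5.27 in the others. Kcnma1 read 4.49 in male casein HCM replicate 1, against 4.77 to 4.82. Kcna2 read 5.12 in male casein wild-type replicate 1, against 5.22 to 5.23. Kcnj3 read 4.49 in male soy wild-type replicate 2, against 4.43 in the others. Kcnq1 read 7.08 in female casein HCM replicate 3, against 6.98 to 6.99, and 7.43 in female soy wild-type replicate 4, against 7.15 to 7.18. Kcnab2 read 6.43 in that same soy wild-type array, against 6.13 to 6.14.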

How the results depend on the processing

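The number of members called was within 1.5 times the reported one under testing all probe sets, quantile normalization, centring on array medians, the replicate block and leaving out set A or set B. It was not under the following, whose cause was not tested unless stated. With array sets entered as a random block, 3 members passed for HCM, 6 for HCM on casein, 0 for HCM on soy (5 at an unadjusted p under 0.05) and 4 for the interaction. Without the casein HCM arrays the HCM effect can be taken on soy alone, and 4 members passed there. Leaving out the dimmest 40% of genes, which leaves 17 members, gave 3 for HCM on soy, 8 for the interaction, 7 for diet, 9 for diet in wild type, 8 for diet in HCM and 3 between sets A and B; fewer members were tested there. Leaving out 1 array at a time gave 6 to 10 for HCM, 3 to 8 on soy, 13 to 15 on casein, 11 to 15 for the interaction, 18 to 21 for diet, 17 to 22 in wild type, 17 to 20 in HCM and 4 to 7 between the sets, with 0 for both sex tests. Splits moved with scaling: quantile normalization gave 0 higher and 6 lower for HCM and 6 higher and 7 lower for the interaction. Neither scaling shifted the median gene by more than 0.07.

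Of 31 calls of named members, no sign reversed. Quantile normalization ended 4 (Kcnd3 and Kcnn4 for HCM, Kcnh2 for diet, Kcnq1 for the interaction), the random block 14, leaving out set A 5 and set B 4. Without the casein HCM arrays, which leaves HCM on soy and diet in wild type, 10 of 19 calls ended. Replicate numbers did not pair the samples: deviations of same-numbered arrays correlated at a median of -0.002 (99 pairs, 25 above 0.1). Those of arrays with other numbers correlated at a median of 0.011 (294 pairs, 85 above 0.1). The replicate block gave 8 members for HCM, 5 on soy, 13 on casein, 13 for the interaction, 19 for diet and 0 for sex, and ended none of the 31 calls. Dim probe sets, below the array median, limit 20 of the 41 members.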
